A study of Mus musculus with 12 samples.

Results

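The genes described here, 5 of the 55335 that the files list, were found by their symbols. They are the transcription factor genes Pou3f1, Pou3f2 and Pou3f3, and the long noncoding RNA genes Pantr1 and Gm28175. All 5 symbols were present. The genes were grouped because they are related or lie close together, and Gm28175 was selected on its level in earlier results of these same data, in which it had differed between the genotypes in D2 striatal neurons. Its differences between WT and Het are therefore given as values without a test. Nuclei of the forebrain of 12 mice at postnatal day 1 had been profiled by single-nucleus RNA sequencing, 1 library per animal. The 8 WT animals (5 male, 3 female) and the 4 Het animals (3 male, 1 female) came from the Myt1l S710fsX line on a C57BL/6 background, and Het animals carry 1 frameshift allele of Myt1l, which encodes a zinc finger protein of neurons, in every cell. Libraries are numbered within genotype, with WT 6, WT 7, WT 8 and Het 4 female. The labels do not tie an animal to a litter.

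Pou3f1 (Oct6, SCIP), Pou3f2 (Brn2) and Pou3f3 (Brn1) encode class III POU proteins, which bind the octamer sequence of DNA through a POU-specific domain and a homeodomain. Pou3f2 and Pou3f3 act together in progenitors and in the making and migration of upper-layer neurons of the neocortex, and Pou3f2, like Myt1l, has been used to turn fibroblasts into neurons. Pou3f1 is known from pyramidal neurons of the neocortex, not only of its upper layers, and from Schwann cells. Pantr1 (linc-Brn1a) is transcribed away from Pou3f3, and a separate noncoding gene, Pantr2 (linc-Brn1b), lies on the other side of Pou3f3.

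In the GENCODE M21 annotation (GRCm38) each of the 3 POU genes has a single exon. Pou3f3 (ENSMUSG00000045515.3) occupies bases 42695768 to 42703176 of chromosome 1, plus strand. Pantr1 (ENSMUSG00000060424.14) runs from 42590782 to 42694842 on the minus strand of chromosome 1, so that its start lies 926 bases from that of Pou3f3 and the genes point away from each other. Gm28175 (ENSMUSG00000101299.2) spans 42261855 to 42304412 of chromosome 1, plus strand, with its start 433913 bases from that of Pou3f3. Pou3f2 (ENSMUSG00000095139.2) occupies bases 22482780 to 22488366 of chromosome 4, minus strand, and Pou3f1 (ENSMUSG00000090125.3) bases 124656807 to 124660655 of the same chromosome, plus strand. Pou3f3 lies inside Gm20646, a gene of the same strand, and Pou3f1 overlaps the start of Gm2164 on the other strand. Whether counting used strand is not stated in the methods read here, so the levels of Pou3f3, Pou3f1 and their overlapping genes are uncertain to that extent.

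RefSeq promoter windows, 250 bases before to 50 after a gene's start on GRCm38.p6, matched 3 of the 5 genes. They are shown because the windows of the POU genes and of Gm28175 differ in composition and in CCAAT boxes, which are marked in capitals (the letters CCAAT, searched on both strands). The Pou3f2 window is chr4:22488317-22488616 on the minus strand, the Pou3f3 window chr1:42695518-42695817 on the plus strand and the Gm28175 window chr1:42257602-42257901 on the plus strand.
Pou3f2: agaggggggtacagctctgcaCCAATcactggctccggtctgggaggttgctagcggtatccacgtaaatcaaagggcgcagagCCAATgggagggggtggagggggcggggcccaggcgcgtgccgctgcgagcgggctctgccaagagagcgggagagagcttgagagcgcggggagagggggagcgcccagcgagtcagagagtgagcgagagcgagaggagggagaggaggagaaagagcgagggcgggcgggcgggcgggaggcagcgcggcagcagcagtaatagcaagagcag
Pou3f3: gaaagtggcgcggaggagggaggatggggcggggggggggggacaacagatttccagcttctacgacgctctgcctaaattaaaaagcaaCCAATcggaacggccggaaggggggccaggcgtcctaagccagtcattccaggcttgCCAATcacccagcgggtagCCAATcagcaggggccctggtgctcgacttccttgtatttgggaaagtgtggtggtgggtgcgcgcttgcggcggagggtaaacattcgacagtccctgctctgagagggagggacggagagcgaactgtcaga
Gm28175: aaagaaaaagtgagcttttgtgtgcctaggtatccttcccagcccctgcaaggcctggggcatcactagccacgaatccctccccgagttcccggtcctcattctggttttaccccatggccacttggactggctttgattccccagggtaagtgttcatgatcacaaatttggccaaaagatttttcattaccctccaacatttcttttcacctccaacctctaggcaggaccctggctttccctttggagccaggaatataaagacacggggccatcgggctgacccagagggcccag
The Pou3f3 window held 3 CCAAT matches, at 160, 103 and 84 bases before the start, and the Pou3f2 window held 2, at 229 and 166 bases before it. Gm28175 held 0. Of 27025 promoters of this length, 37.92% held at least 1 match, 12.16% at least 2 and 3.56% at least 3. The motif was picked after the sequences had been seen. The octamer ATGCAAAT, present in 1.75% of promoters, and AAGTT, the core bound by proteins of the MYT1 family and present in 39.5%, had 0 matches in these 3 windows. G and C made up 67.67% of the Pou3f2 window, 60.33% of the Pou3f3 window and 52.33% of the Gm28175 window, against a median of 52.67% over all promoters. The RefSeq start of Gm28175 differs from that of GENCODE M21, so its window lies before the GENCODE gene.

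After filtering, 94576 nuclei were kept, from 4469 to 10842 per library, with 9732754 to 24285149 unique molecular identifiers (UMIs, tags that mark captured RNA molecules). Of these nuclei, 67643 (71.5%) passed the gate of 1 of 16 cell classes, and 5.26% of the gated nuclei lay near a gate. Each class carries the name of the marker list it passed. ExN abbreviates excitatory neuron and InhN inhibitory neuron. MGE is the medial ganglionic eminence, CGE the caudal one, and D1 and D2 name striatal projection neurons by their dopamine receptor. Of 44 check markers, none on the gate list of its own class, 39 were over 2-fold higher in their class than outside it. Hs3st4, a check marker of L6b/subplate ExN, was on the deep-layer gate list. The misses were Plxnd1 in upper-layer ExN (1.19-fold), Ldb2 and Bcl11b in deep-layer ExN (1.45-fold and 1.42-fold), Sfxn1 in D1 nuclei (0.958-fold) and Neurog1, at 0 in both. The striatal classes were thin in WT 4, which held 19 D1 and 11 D2 nuclei. The mutated gene, Myt1l, was not lower in the libraries labelled Het. In upper-layer ExN it ran from 1376 to 1896 CPM (a gene's UMIs per 1000000 of all UMIs) in the libraries labelled WT and from 1933 to 2114 in those labelled Het, so that the groups did not overlap (log2 difference 0.23, SE 0.0762, edgeR adjusted p = 0.518). In all excitatory nuclei it ran from 1336 to 1701 and from 1733 to 2031 CPM, again without overlap (log2 difference 0.26, SE 0.0736, edgeR adjusted p = 0.287), and over all nuclei from 1273 to 1607 and from 1528 to 1649 CPM. What becomes of the frameshift transcript was not tested, so Myt1l alone does not check the labels. The study's methods describe genotyping by PCR of each allele, from tissue and also from the nuclei. The paper's text gives the sizes of the groups as the labels do, except in 1 place, where they are the other way round. WT and Het stand throughout for libraries labelled so, and the direction of each difference between them rests on the labels.

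Pou3f1 was detected in 2949 kept nuclei (3.12%), Pou3f2 in 8959 (9.47%), Pou3f3 in 15766 (16.7%), Gm28175 in 19787 (20.9%) and Pantr1 in 24238 (25.6%). Levels below are CPM of the UMIs of a class summed within a library, as mean ± SD over the 12 libraries (11 for choroid/ependymal nuclei). CPM is not scaled by gene length, so levels are compared between classes within a gene and not between genes. They are given as a description, with no test between classes.

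Pou3f1, which had the fewest UMIs of the 5 genes (3125), was highest in upper-layer ExN, at 37.2 ± 13.5 CPM (SD, n = 12). Intermediate progenitors followed at 19.0 ± 9.28 and D2 striatal nuclei at 18.1 ± 10.9 CPM, and the ranges of all neighbours in its order overlapped. Upper-layer ExN stood 4.64-fold above deep-layer ExN, which had 8.02 ± 5.30 CPM, and were the higher class in 12 of 12 libraries. Endothelial nuclei, which come from another lineage and serve here and below as a background for free RNA, stood at 7.26 ± 6.75 CPM, so that this fold is a lower limit. The level in L6b/subplate ExN was 2.76 ± 5.60 CPM, the lowest of the 16 classes, so the endothelial level may overstate the background.

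Pou3f2 was at a like level in 4 classes. Cycling nuclei stood at 126 ± 24.2 CPM, intermediate progenitors at 117 ± 26.6, astroglia, the class of astrocytes and radial glia, at 114 ± 24.4 and upper-layer ExN at 103 ± 18.2 CPM (SD, n = 12 each), with overlapping ranges. The lowest of the 12 upper-layer values, 84.0 CPM, lay above the highest in the next class, the oligodendrocyte lineage (41.3 ± 9.28 CPM, up to 55.0). All other classes had means under the oligodendrocyte lineage. The widest of them, choroid/ependymal nuclei (27.1 ± 30.2 CPM, n = 11), reached up to 89.2 CPM and so overlapped the upper-layer range. Deep-layer ExN, at 16.8 ± 5.82 CPM, were 6.14-fold below upper-layer ExN, and MGE InhN and D1 striatal nuclei were at 17.9 and 14.5 CPM. These 3 levels are not above that of endothelial nuclei (18.8 ± 13.6 CPM), and the fold is a lower limit.

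Pou3f3 shared the 4 leading classes of Pou3f2 but reached further down the order. Cycling nuclei stood at 198 ± 29.0 CPM, astroglia at 195 ± 27.4, intermediate progenitors at 156 ± 37.7 and upper-layer ExN at 146 ± 33.2 CPM. The oligodendrocyte lineage followed at 117 ± 13.4 CPM. Inhibitory and striatal neurons lay between 61.3 and 76.7 CPM, deep-layer ExN at 53.3 ± 7.91 and Cajal-Retzius nuclei, early-born neurons of the surface layer, at 15.7 ± 6.54 CPM. The upper-layer level was 2.75-fold that of deep-layer ExN, in 12 of 12 libraries, and lower than that of astroglia in 12 of 12. Each step from 1 class to the next had overlapping ranges.

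Pantr1 was highest in upper-layer ExN at 389 ± 48.2 CPM, with overlapping ranges in intermediate progenitors (340 ± 71.6) and cycling nuclei (316 ± 61.2). Astroglia followed at 253 ± 43.1 and the oligodendrocyte lineage at 173 ± 24.3 CPM. Upper-layer ExN were 7.49-fold above deep-layer ExN (51.9 ± 16.9 CPM) and 1.54-fold above astroglia, each in 12 of 12 libraries. Endothelial nuclei stood at 34.9 ± 22.1 CPM, close to deep-layer ExN, so the fold over deep-layer ExN is a lower limit. Astroglia and upper-layer ExN thus stood in the opposite order for Pou3f3 and for its divergent neighbour. The ratio of Pantr1 to Pou3f3 UMIs within a library was 2.79 ± 0.704 in upper-layer ExN, 2.28 ± 0.597 in intermediate progenitors, 1.33 ± 0.333 in astroglia and 0.987 ± 0.308 in deep-layer ExN (SD, n = 12).

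For Gm28175 the leading class did not overlap the next. Upper-layer ExN held 419 ± 52.9 CPM (SD, n = 12), from 303.8 to 490 over libraries, and the highest library of the next class, intermediate progenitors (193 ± 39.2), reached 270 CPM. MGE InhN at 170 ± 25.7, CGE InhN at 155 ± 35.4 and astroglia at 155 ± 30.1 CPM followed with overlapping ranges. Among GABAergic classes, MGE and CGE InhN stood well above the striatal projection neurons. MGE InhN were 6.31-fold above D1 nuclei (26.9 ± 7.71 CPM) and CGE InhN 8.46-fold above D2 nuclei (18.3 ± 10.8 CPM), each in 12 of 12 libraries. Both striatal levels are near that of endothelial nuclei (25.1 ± 17.2 CPM), so these folds are lower limits. The same pairs differed by 0.993-fold and 1.25-fold for Pou3f3 and by 1.11-fold and 1.47-fold for Pantr1. In cycling nuclei, 1 of the 4 leading classes of Pou3f2 and Pou3f3, Gm28175 stood at 110 ± 29.6 CPM.

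**Figure D1:**
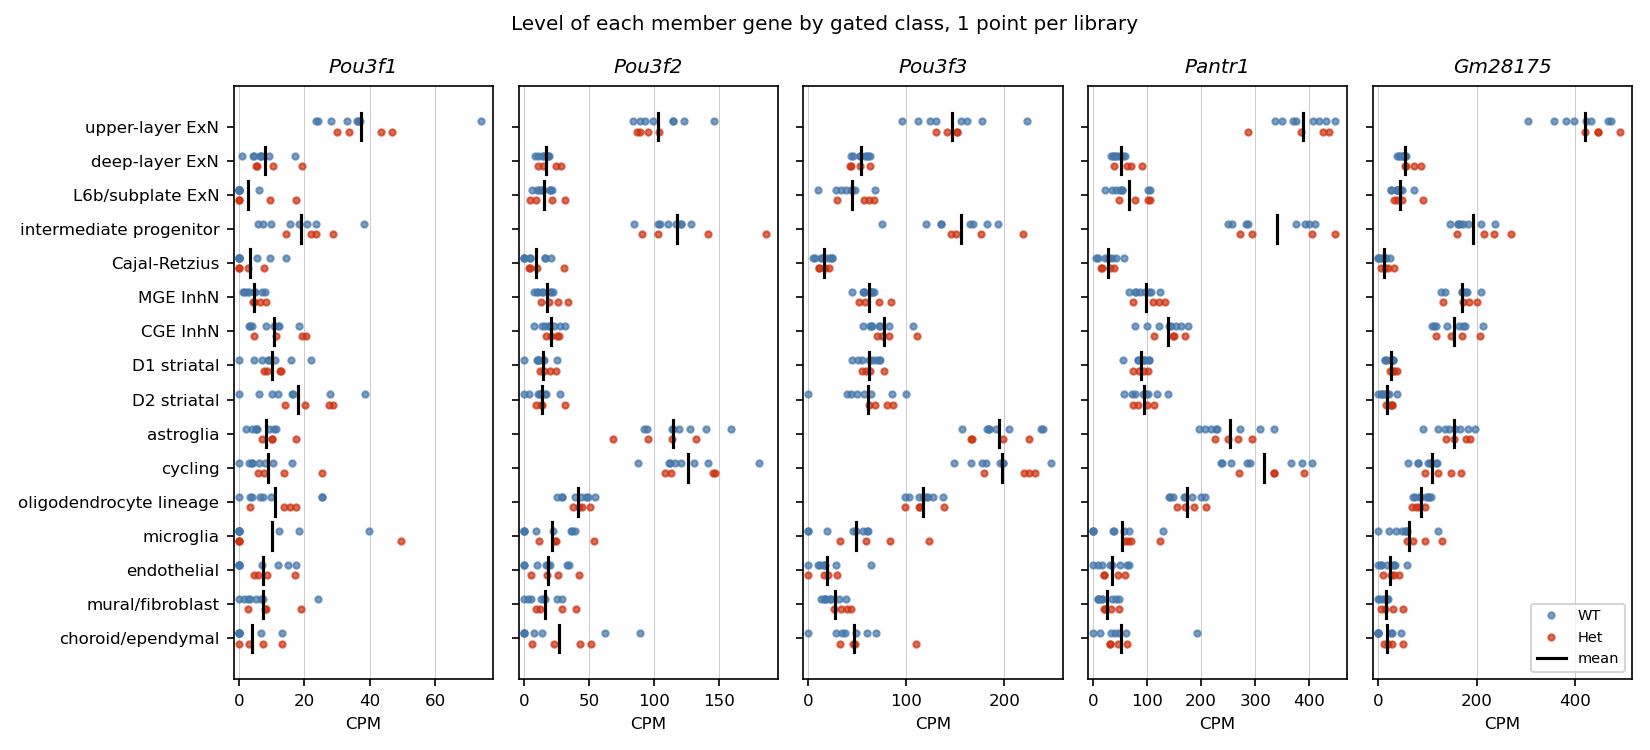
Level of each gene (CPM, x axis) in the 16 gated classes (y axis), with 1 point per library, blue for WT and red for Het, and the mean as a black line. Gm28175 has its 12 upper-layer values, 303.8 to 490 CPM, above all points of other classes, while the values of Pou3f2 overlap among cycling nuclei, intermediate progenitors, astroglia and upper-layer ExN and Pou3f3 is higher in astroglia than in upper-layer ExN in 12 of 12 libraries.

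Upper-layer ExN were split by whether their neighbourhood was higher for Unc5d, a netrin receptor gene, or for Rorb, a nuclear receptor gene of layer 4. The split was added after the data had been seen. The Unc5d side held 7103 nuclei with a median of 1737 UMIs and the Rorb side 9293 with a median of 2389. Pou3f2 was at 166 ± 30.6 CPM on the Unc5d side and 63.3 ± 7.30 on the Rorb side (SD, n = 12), and no library of the Unc5d side was as low as the highest of the Rorb side. Pantr1 was at 571 ± 70.1 and 276 ± 45.9 CPM, Pou3f3 at 199 ± 43.0 and 112 ± 24.2 CPM, and Gm28175 at 560 ± 75.7 and 329 ± 50.3 CPM. These 4 genes were higher on the Unc5d side in 12 of 12 libraries, with mean log2 differences of 1.38, 1.06, 0.82 and 0.77. Pou3f1 had the opposite order in all 12, at 29.0 ± 9.44 CPM on the Unc5d side and 42.6 ± 17.6 on the Rorb side, a mean log2 difference of -0.55.

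**Figure D2:**
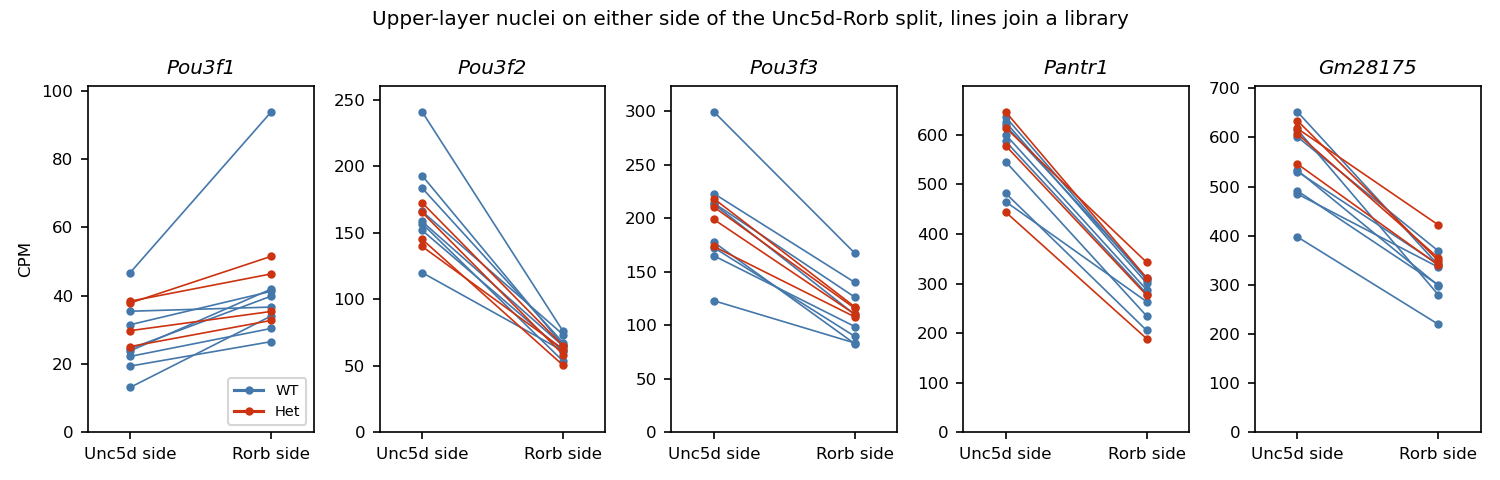
Level of each gene (CPM, y axis) in upper-layer ExN of the Unc5d side and of the Rorb side, with a line joining the values of 1 library, blue for WT and red for Het. Lines fall from left to right in 12 of 12 libraries for 4 genes and rise in 12 of 12 for Pou3f1.

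Over the means of 16 classes, on the log2(CPM + 1) scale, Pou3f3 and Pantr1 were the members most alike, with a Pearson's r of 0.948. The values for Pou3f2 with Pou3f3 and with Pantr1 were 0.897 and 0.894, those of Gm28175 with Pantr1, Pou3f3 and Pou3f2 were 0.824, 0.801 and 0.796, and those of Pou3f1 with the others lay between 0.592 and 0.735. These correlations describe 16 classes taken from the same libraries, and thin classes weigh as much as large ones. Among 11427 other genes with a mean of at least 20 CPM in a class, the gene most like Pou3f2 was Gm29260 (r = 0.947), a noncoding RNA gene on chromosome 1 from 41781808 to 41939560. Pou3f3 and Pantr1 were most like Gm20646 (r = 0.917 and 0.912), within which Pou3f3 lies. Pou3f1 was most like Gm2164 (r = 0.870), the gene that overlaps it on the other strand, and Mn1 (r = 0.865). Gm28175 was most like Lancl3 (r = 0.932) on chromosome X.

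Because Gm29260 and several of these genes share a stretch of chromosome 1, all genes whose start lies within 1000 kb of that of Pou3f3 were set out by distance, a window chosen after the data had been seen. Of 30 such genes, 12 had at least 1000 UMIs. The 5 noncoding ones (Gm29260, Gm28175, Pantr1, Gm20646 and Pantr2) had r values with Pou3f3 from 0.801 to 0.948, while the 6 other protein-coding ones (Mrps9, Gpr45, Tgfbrap1, AI597479, Fhl2 and Nck2) ranged from -0.24 to 0.454. Over 11681 genes with as many UMIs the median r was 0.149, and 0.437% had an r above 0.8. The noncoding genes are not an independent set to weigh against this share. Pantr1 and Gm28175 are members chosen with their pattern known, and Gm20646 holds Pou3f3 and may share its reads. Gm29260 and Pantr2 had already come up in the search for genes most like Pou3f2. Gm29260 stood at 1933 CPM in cycling nuclei and 1545 in astroglia but at 276 CPM in upper-layer ExN, and Pantr2 at 38.5 CPM in astroglia and 6.88 in upper-layer ExN, whereas Gm28175 was higher in upper-layer ExN than in astroglia. Gpr45, a G-protein-coupled receptor gene, was at 148 CPM in upper-layer and 145 in deep-layer ExN, and Fhl2 was highest in mural/fibroblast nuclei at 216 CPM.

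**Figure D3:**
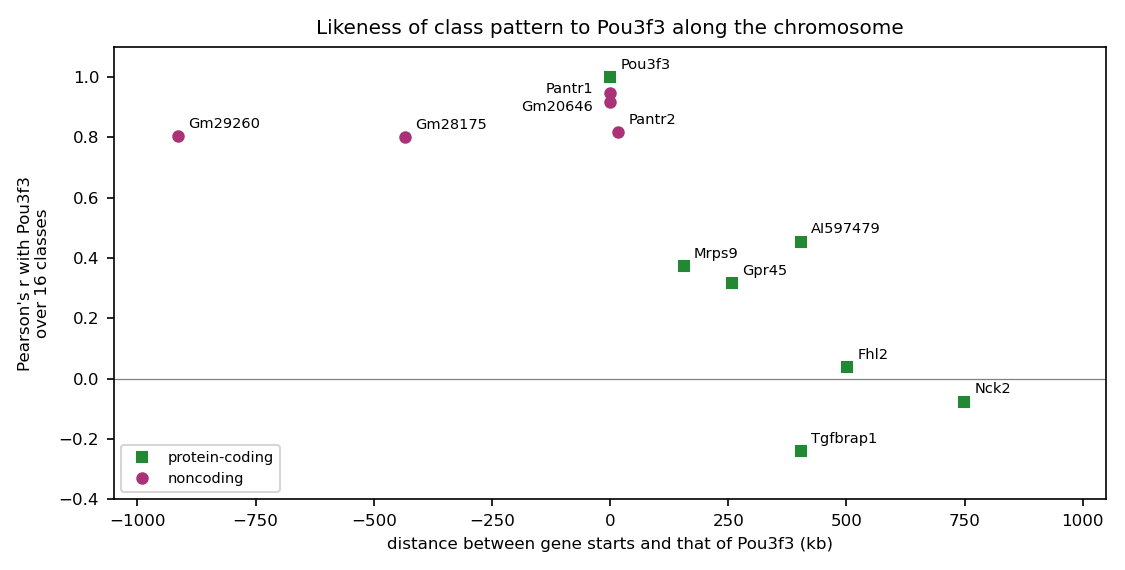
Pearson's r of a gene's class pattern with that of Pou3f3 over 16 classes (y axis) against the distance between the starts of the gene and Pou3f3 (kb, x axis), for the 12 genes with at least 1000 UMIs. Noncoding genes (circles) lie at 0.801 to 0.948 and protein-coding genes other than Pou3f3 (squares) at -0.24 to 0.454.

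To see which of these RNAs were found in the same nuclei, each upper-layer nucleus was thinned to 1000 UMIs and nuclei with fewer were left out (602 in WT and 626 in Het libraries), which kept 15168. At this depth Gm28175 had a UMI in 32.8% ± 3.84 of nuclei (SD, n = 12), Pantr1 in 31.9% ± 2.75, Pou3f3 in 13.9% ± 2.97, Pou3f2 in 10.1% ± 1.64 and Pou3f1 in 3.94% ± 1.57. Without thinning the shares were 50.7%, 51.0%, 26.3%, 19.1% and 7.70%. In Cajal-Retzius nuclei, thinned alike, the shares were 0.967%, 2.94%, 0.865%, 1.21% and 0.299%, and in endothelial nuclei, which come from another lineage, 1.90%, 3.83%, 2.38%, 1.38% and 0.294%. The median depth before thinning was 2072 UMIs in upper-layer, 2540 in Cajal-Retzius and 1736 in endothelial nuclei. Each gene was thus found more often in upper-layer nuclei than in classes that serve as a background for free RNA.

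The count of nuclei with a UMI of both genes was set against the count expected within each library if the 2 detections were independent. Pantr1 and Gm28175 were found together in 2000 nuclei against 1661 expected, a mean ratio of 1.23 ± 0.110 (SD, n = 12), above 1 in 12 of 12 libraries. Pou3f2 and Gm28175 were found together in 643 against 510 (mean ratio 1.27 ± 0.109, above 1 in 12 of 12), and Pou3f2 and Pantr1 in 619 against 492 (1.23 ± 0.132, 11 of 12). For Pou3f3 with Pantr1 the counts were 748 and 656 (1.14 ± 0.114, 11 of 12) and for Pou3f3 with Gm28175 772 and 682 (1.13 ± 0.0933, 11 of 12). The factors Pou3f2 and Pou3f3 shared 221 nuclei against 205 expected, with ratios from 0.425 to 1.53. Over the class as a whole, Pou3f1 with Pantr1 (182 against 181), with Gm28175 (186 against 188) and with Pou3f2 (57 against 56.7) stood close to the expected count. Pou3f1 with Pou3f3 gave 93 against 76.8, with ratios from 0 to 3.03 over libraries.

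The ratios were also taken within each side of the class, and the difference between the sides was not tested. Among nuclei of the Unc5d side, Pantr1 and Gm28175 shared 1210 nuclei against 1141 expected, a pooled ratio of 1.06 with an SD over libraries of 0.0814, and on the Rorb side 790 against 614, a pooled ratio of 1.29 with an SD of 0.255. For Pou3f2 and Gm28175 the pooled ratios were 1.07 and 1.39 (SD 0.131 and 0.341), and for Pou3f2 and Pantr1 1.07 and 1.28 (SD 0.135 and 0.279). For Pou3f3 and Pantr1 they were 1.01, above 1 in 6 of 12 libraries, and 1.19, above 1 in 11 of 12. For Pou3f3 and Gm28175 they were 1.03, above 1 in 7 of 12 libraries, and 1.17, above 1 in 12 of 12. Pou3f2 and Pou3f3 had the opposite order, at 0.994 and 0.928 (SD 0.274 and 0.499). For Pou3f1 and Gm28175 the pooled ratio was 0.828 on the Unc5d side, above 1 in 3 of 12 libraries. On the Rorb side it was 1.18, above 1 in 10 of 12. Pou3f1 and Pantr1 had 0.913, above 1 in 3 of 12, and 1.19, above 1 in 8 of 12. Pou3f1 and Pou3f2 had 1.21 and 0.999, and Pou3f1 and Pou3f3 1.20 and 1.33. In astroglia Pantr1 and Gm28175 were found together in 254 nuclei against 187 expected (1.36), and Pou3f3 and Gm28175 in 184 against 147 (1.25). In deep-layer ExN, on small counts, Pantr1 and Gm28175 shared 40 nuclei against 16.5 expected (2.43, above 1 in 10 of 12 libraries). Pou3f3 and Gm28175 shared 43 there against 19.6 (2.19), and Pou3f2 and Gm28175 19 against 6.23 (3.05). Pou3f3 and Pantr1 gave 26 against 16.8 (1.55), while Pou3f1 and Pou3f3 gave 1 against 2.82. The 6 pairs without Gm28175 were compared between WT and Het by an exact two-sided permutation test over libraries, for which the smallest possible p is 0.00404. The smallest p was 0.210, for Pou3f3 and Pantr1, with ratios of 1.11 ± 0.115 (SD, n = 8) for WT against 1.20 ± 0.0956 (SD, n = 4) for Het (adjusted p = 0.836 over the 6 pairs).

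**Figure D4:**
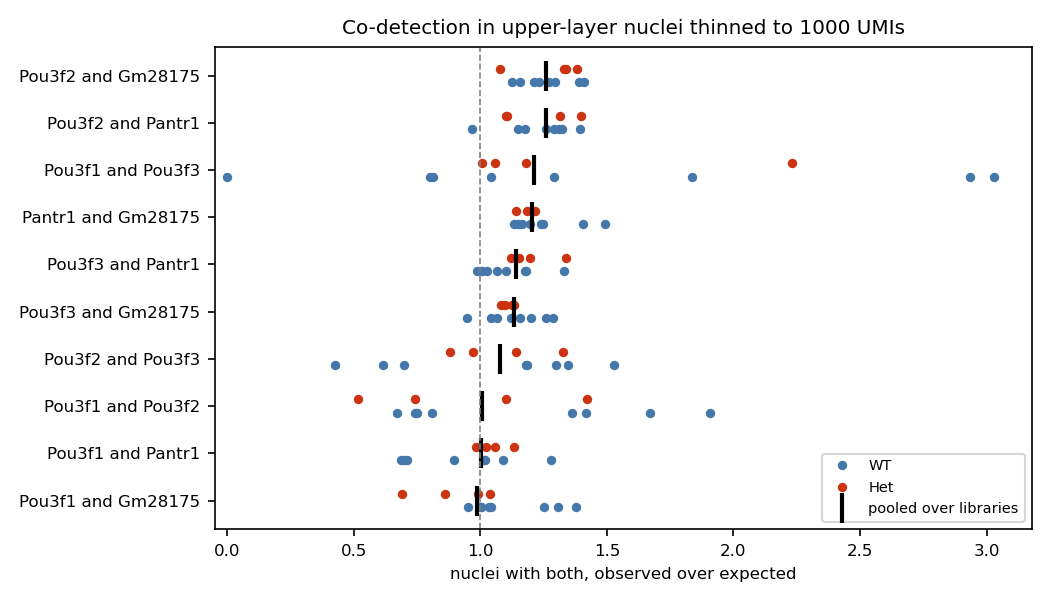
Observed over expected number of upper-layer nuclei with both genes of a pair (x axis) for the 10 pairs (y axis), after thinning to 1000 UMIs, with 1 point per library (blue WT, red Het), the ratio pooled over libraries as a black bar and a dashed line at 1. Pairs of Pou3f2, Pou3f3, Pantr1 and Gm28175 that include a noncoding RNA lie above 1 in at least 11 of 12 libraries, while pairs with Pou3f1 spread around it.

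Libraries labelled WT and Het were compared in each class, in all excitatory nuclei and in all nuclei, to see whether these genes differed with the labelled genotype. For the 4 genes with a test, 48 pairs of gene and summed class passed the filter on low counts, and 0 were called (edgeR's quasi-likelihood test, Benjamini-Hochberg adjusted p under 0.05 and a log2 difference of at least 0.2). Over all genes, 12 of 142062 tests in these 18 sums were called, or 0.00845%, and 7.31% had an unadjusted p under 0.05. By class the called share was 0.0425% in D1 and 0.0298% in D2 striatal nuclei, 0.0145% in intermediate progenitors and 0.0536% in L6b/subplate ExN, with the excitatory layers given below and 0 calls in the other classes and in all nuclei. Among the 48, 3 (6.25%, a share near that of all genes) had an unadjusted p under 0.05, all higher in Het, and the smallest adjusted p was 0.459. DESeq2 called 103 of the 142062 tests (0.0725%) and 0 of the 48, of which 14 received no adjusted p. Of the 16 classes, Pantr1 and Pou3f3 passed the filter in 13, Gm28175 in 11, Pou3f2 in 9 and Pou3f1 in 5, and none did in Cajal-Retzius, microglia or endothelial nuclei.

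In upper-layer ExN, where 0 of 12219 genes were called (0%), WT values of Pou3f2 ran from 84.0 to 145.5 CPM with a median of 107, and the Het values were 89.3, 95.0, 103 and 86.7 CPM (here and below in the order Het 1 to Het 4). All 4 Het libraries lay under the WT mean and inside the WT range, with a log2 difference of -0.18 (SE 0.113, edgeR adjusted p = 0.744). Pou3f3 ran from 95.1 to 223 CPM in WT and from 131 to 152 in Het (log2 difference -0.01, SE 0.153). Pantr1 ran from 336 to 448 CPM in WT, and Het 1 to Het 3 lay between 385 and 437 with Het 4 at 287 (log2 difference -0.04, SE 0.106). Pou3f1 ran from 23.6 to 74.0 CPM in WT, with WT 8 at the top and the next library at 37.0, and from 30.1 to 46.9 in Het (log2 difference 0.12, SE 0.201). Gm28175 had a WT median of 409 CPM, from 303.8 to 472, and Het values of 490, 447, 445 and 419 CPM. Those 4 lay above the WT mean of 404 ± 56.5 (SD, n = 8), 1 of them above all WT libraries, for a log2 difference of 0.15.

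In deep-layer ExN both noncoding RNAs were higher on average in Het libraries, at levels far below those of the upper layers. Gm28175 ran from 38.6 to 57.1 CPM in WT with a median of 51.2, and stood at 73.5, 88.6, 55.9 and 57.2 CPM in the Het libraries. Het 1 and Het 2 lay well above all WT libraries, Het 4 just above their highest value and Het 3 just under it, for a log2 difference of 0.46. Pantr1 ran from 32.5 to 59.6 CPM in WT with a median of 44.2, and stood at 62.2, 90.7, 70.5 and 38.8 CPM in Het. Het 1 to Het 3 lay above all WT libraries and Het 4 inside their range. The log2 difference was 0.49 (SE 0.177, edgeR adjusted p = 0.495), in a class where 1 of 10039 genes was called (0.00996%). Without Het 4 it was 0.72 with an edgeR adjusted p of 0.0455, when 28 of 10091 genes were called (0.277%). Het 4 is the only female Het library, so that fit sets male Het libraries against WT libraries of both sexes. In males only the log2 difference was 0.61 with an edgeR adjusted p of 0.137, not called. Without Het 2 it was 0.28 with an edgeR adjusted p of 0.837. Pou3f1 and Pou3f2 had log2 differences of 0.44 (SE 0.388) and 0.31 (SE 0.227), and Pou3f3 one of -0.12 (SE 0.122), none called. The levels of Pou3f1 and Pou3f2 are near the endothelial background. Pantr1 is close to it too after thinning, with a UMI in 4.25% ± 1.26 of deep-layer and 3.83% ± 2.95 of endothelial nuclei (SD, n = 12). Before thinning the shares were 10.3% ± 3.18 and 5.65% ± 3.49, at median depths of 2324 and 1736 UMIs. Cajal-Retzius and mural/fibroblast nuclei had less Pantr1, at 27.5 ± 14.8 and 26.0 ± 14.7 CPM, than deep-layer ExN at 51.9 ± 16.9. The part of free RNA in the deep-layer level of Pantr1 was not tested. Its endothelial means were 34.0 CPM in WT and 36.8 in Het. The summed level of the 6 upper-layer gate markers in these nuclei was 985 to 1303 CPM in WT and 1103 to 1451 in Het, against a WT mean of 6680 CPM in upper-layer ExN, and that of the deep-layer markers averaged 8412 ± 944 (SD, n = 8) for WT against 8369 ± 559 (SD, n = 4) for Het. Their part in the result was not tested.

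In all excitatory nuclei Gm28175 ran from 129 to 304.7 CPM in WT with a median of 234, and stood at 416, 362, 342 and 211 CPM in the Het libraries. Het 1, Het 2 and Het 3 lay above all WT libraries and Het 4 inside their range, a log2 difference of 0.48 against 0.15 within upper-layer ExN. Pantr1 stood at 372, 347, 300.5 and 148 CPM in Het and from 137 to 310 CPM in WT (log2 difference 0.34, SE 0.225, edgeR adjusted p = 0.568). In this sum 2 of 13957 genes were called, or 0.0143%. Upper-layer nuclei, in which both RNAs are highest, made up 83.4%, 80.2%, 74.9% and 46.0% of the excitatory nuclei of the Het libraries and from 33.3% to 72.5% in WT (mean 54.5% ± 13.7, SD, n = 8, in WT against 71.1% ± 17.1, SD, n = 4; p = 0.101 by an exact permutation test). The 3 Het libraries above the WT range of Gm28175 were also the 3 with the largest shares of upper-layer nuclei, and the part of this mix in the difference was not tested.

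The D2 striatal nuclei are the class in which Gm28175 had been singled out, there by clusters rather than gates. Here they held 139 Gm28175 UMIs in all, and the WT values were from 0 to 38.2 CPM with a median of 13.1, the Het values 16.7, 24.2, 28.7 and 28.3 CPM. All Het values lay inside the WT range, with means of 15.2 ± 11.7 (SD, n = 8) for WT against 24.5 ± 5.56 (SD, n = 4) for Het. These levels are not above the endothelial background. After thinning to 1000 UMIs Gm28175 had a UMI in 1.63% of D2 and 1.90% of endothelial nuclei, at median depths of 1692 and 1736 UMIs. Cajal-Retzius nuclei stood lower than both, at 13.1 ± 10.2 CPM and 0.967%. Mural/fibroblast nuclei, at 12.3 CPM in WT and 25.7 in Het, and endothelial nuclei, at 23.5 and 28.4, also had the higher mean in Het. In D1 nuclei, at 2.37% near the endothelial background too, the values were 13.9 to 31.2 CPM in WT and 24.5, 33.8, 39.5 and 31.4 CPM in Het. In cycling nuclei the means were 97.4 CPM in WT and 134 in Het. In the other direction stood the oligodendrocyte lineage, at 91.2 CPM in WT and 81.3 in Het. Gm28175 in MGE InhN, at 168 and 173 CPM, differed least.

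**Figure D5:**
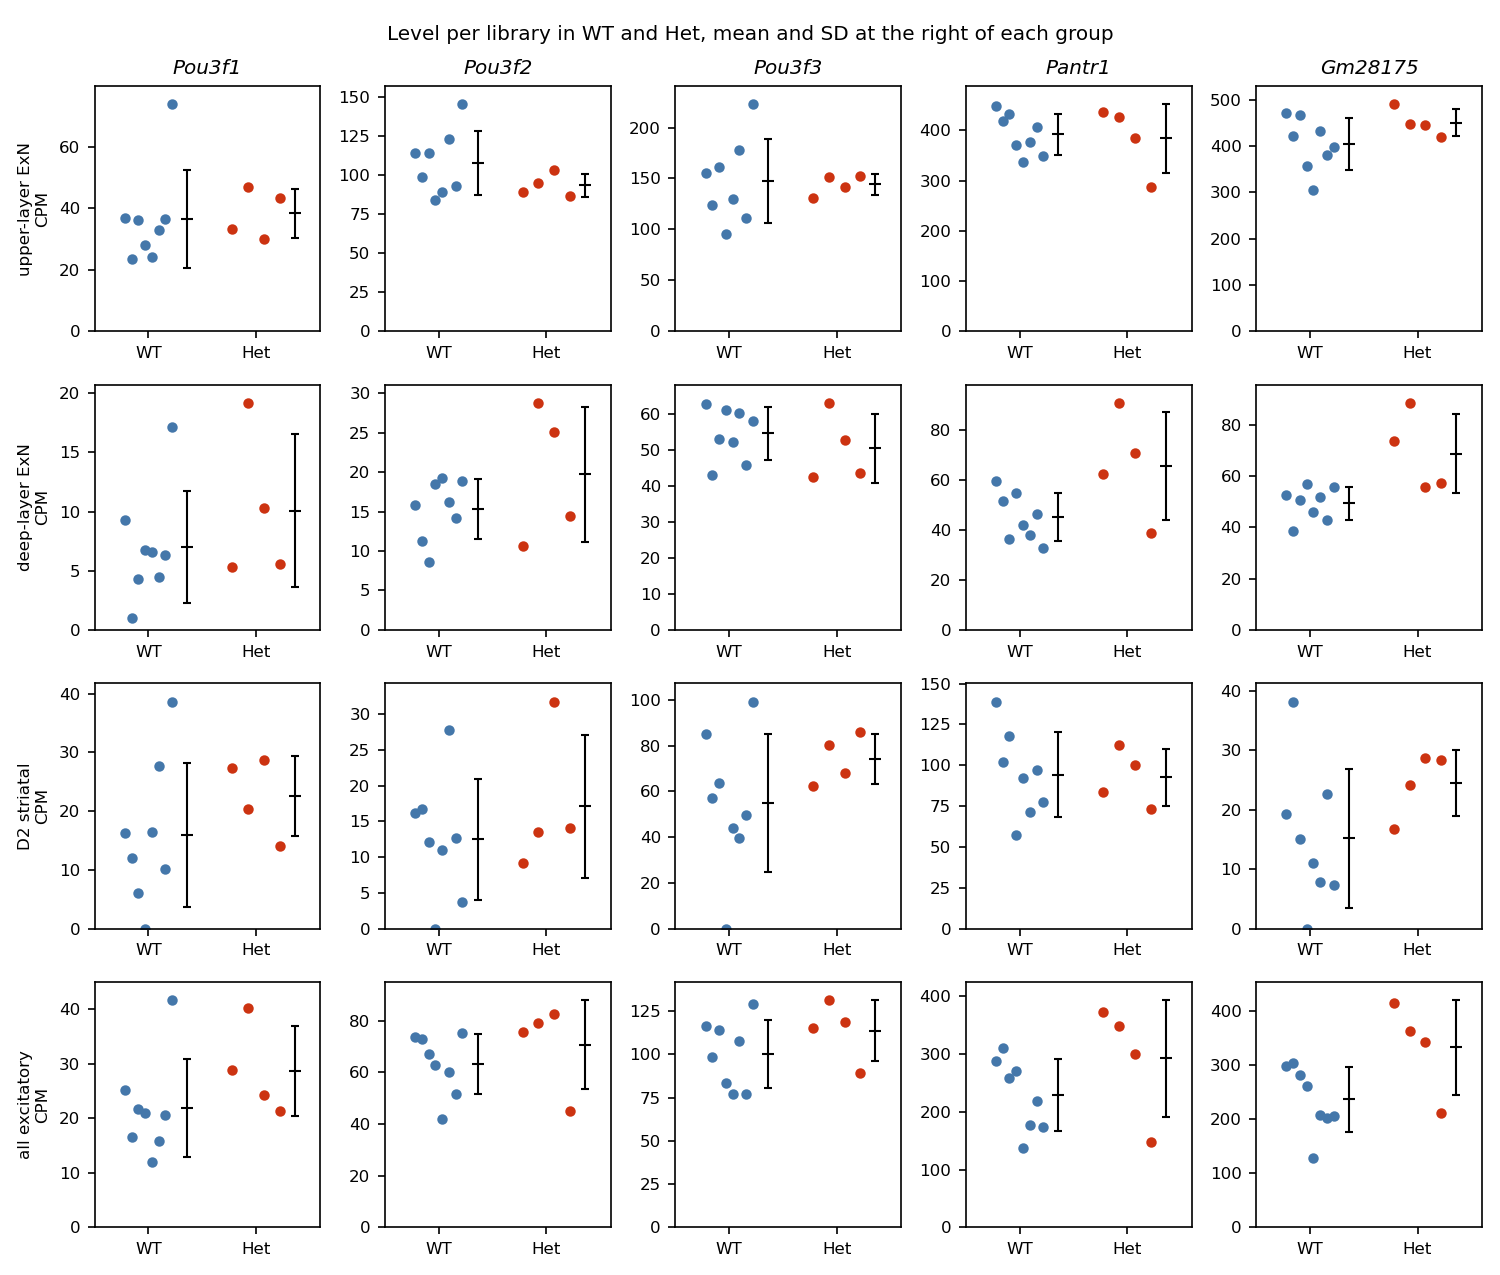
Level of each gene (CPM, y axis, from 0) in WT and Het libraries, with 1 point per library and the mean with SD beside each group, in upper-layer ExN, deep-layer ExN, D2 striatal nuclei and all excitatory nuclei. Het 4 is the lowest Het point for Pantr1 in each of these 4 sums, and WT 8 is the highest WT point for Pou3f1 in each.

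The other 2 pairs of gene and class had an unadjusted p under 0.05. Pou3f2 in MGE InhN was at 15.3 CPM in WT, from 7.99 to 22.4, and at 23.2 in Het, from 13.6 to 34.1 (log2 difference 0.58, SE 0.241, edgeR adjusted p = 0.653). Endothelial nuclei had nearly the same means, 16.7 and 23.1 CPM. After thinning Pou3f2 had a UMI in 1.51% of MGE and 1.38% of endothelial nuclei, at median depths of 1887 and 1736 UMIs. The MGE levels are thus not above the endothelial background, while Cajal-Retzius nuclei stood lower, at 9.42 ± 9.78 CPM and 1.21%. Pou3f3 in mural/fibroblast nuclei was at 22.4 CPM in WT and 35.8 in Het on 146 UMIs (log2 difference 0.73, SE 0.253, edgeR adjusted p = 0.846). After thinning it had a UMI in 2.73% of these and 2.38% of endothelial nuclei, so it is near the endothelial background. The endothelial means went the other way, at 20.3 CPM in WT and 16.2 in Het. In mural/fibroblast nuclei the summed level of the upper-layer markers was 332 ± 145 CPM (SD, n = 8) against 511 ± 295 (SD, n = 4), up to 612 and 900.2, and that of the deep-layer markers 350.5 ± 100.2 against 429 ± 129. Sox11, a factor of young neurons, had a log2 difference of 0.77 (SE 0.320), Myt1l one of 0.52 (SE 0.316) and Sox4, a relative of Sox11, one of 0.032 (SE 0.289), none called. The summed level of the astroglia markers, a class with much Pou3f3, was 1520 to 2373 CPM in WT and 1654 to 2006 in Het. The part of these nuclei's mix in the result was not tested.

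Of the 12 other POU genes, 8 passed the filter in at least 1 sum, giving 68 tests with 0 called, 1 higher and 2 lower at an unadjusted p under 0.05. Pou2f1 (Oct1), widely used in many tissues, was highest in cycling nuclei at 655 ± 77.2 CPM (SD, n = 12). Pou3f4 (Brn4), the remaining gene of class III, had 474 UMIs and its highest mean, 10.1 ± 5.12 CPM, in cycling nuclei. The means of Pou3f2 and Pou3f3 were also highest there, with ranges overlapping those of the next class. The 8 known partners and targets gave 83 tests with 0 called and 7 (8.43%, near the 7.31% of all genes) at an unadjusted p under 0.05, all higher in Het. Of these 7, 3 were of the mutated gene itself and 2 of Sox2, and both genes were counted in upper-layer ExN and again in all excitatory nuclei, which share them. Sox11 was highest in intermediate progenitors (485 ± 132 CPM), and Sox2 and the fatty acid binding protein gene Fabp7 in astroglia (89.5 ± 16.6 and 532 ± 80.6 CPM). The genes within 500 kb of Pou3f3 gave 75 tests over 9 genes with 0 called, 1 higher and 1 lower at an unadjusted p under 0.05.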

How the data were processed

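Nuclei of 12 forebrain libraries (8 WT, 4 Het) were analysed from the deposited files. The authors used ScaleRna on mm10 to count UMIs and deposited expected counts: where a UMI matched more than 1 gene, each gene received a fraction of it. Such fractions made up 0.0698% to 0.746% of the nonzero entries of the 5 genes. The submitters' processing notes name Seurat 4.3.0 and mm10. No step here removed free RNA.

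The study's stated filter kept 98111 of 126684 barcodes. It asked for 300 to 3000 genes, for 800 to 6000 UMIs of which no more than 1% were mitochondrial, and for log(genes)/log(UMIs) of 0.9 or more. Of all barcodes, the 5% per library with the most simulated doublets among their neighbours were marked (6333). The 3535 of these that had passed the filter were removed, which left 94576. No barcode was shared between libraries (0). Total UMIs per library ran from 15439428 to 40784143. Marker lists were scored as mean standardized levels smoothed over 20 nearest neighbours in 40 components of 2000 variable genes, with the 5 genes left out. A nucleus passed a gate at a score of 0.5, a lead of 0.25 over the next class and 2 raised markers. These thresholds were set after the data had been seen, and the 5 genes, the gene lists and the markers were chosen with earlier results of these data known. A class needed at least 10 nuclei in 3 libraries of each genotype.

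Sums over nuclei were rounded to whole numbers and tested with edgeR 4.0.16 (R 4.3.3; quasi-likelihood test, TMM, filterByExpr, genotype as the only term), with Benjamini-Hochberg adjustment over all genes of a class. The test was also run on simulated upper-layer counts with known changes. Replicates are separate animals. DESeq2 1.42.0 was an alternative. Genes named are the 5 members, all genes of the fixed lists by count and, by likeness of class pattern, up to 3 genes per member. Exact permutation tests used scipy 1.17.1. Gene positions came from GENCODE M21, which held 54587 of the 55335 identifiers, and promoter sequences from RefSeq.

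The labels number animals within sex and genotype. Deviations from the group means of the 4 pairs of libraries with the same sex and number correlated at 0.143, 0.195, 0.0244 and 0.360 over 5494 autosomal genes in excitatory nuclei, so the numbers were not taken as pairs.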

Additional observations from a re-analysis of the deposited data

Results flagged for a closer look

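In 60 groups of 4 or 8 libraries, given by gene, summed class and genotype, the distance of the highest or lowest library from the nearest other was set against the range of the group. Chance marks about 1 in 20 such groups, and 3 were marked here, all for Pou3f1 in WT 8, a female library and the one with the fewest kept nuclei. Pou3f1 in WT 8 stood at 74.0 CPM in upper-layer ExN, with the next WT library at 37.0. The values were 41.6 CPM in all excitatory nuclei, with the next WT library at 25.2, and 24.7 CPM in all nuclei, with the next at 14.4. The 3 groups share nuclei and are not independent. WT 8 was also the highest WT library for Pou3f2 (145.5 CPM) and Pou3f3 (223 CPM) in upper-layer ExN, which did not pass the mark.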

How the results depend on the processing

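The 4 tested genes had 0 calls in the 18 sums under DESeq2, RLE scaling, a sex term, males only, the strict gate, doublets kept, all deposited barcodes and divided UMIs left out. Without the filter on low counts 1 call appeared (Pantr1 in deep-layer ExN), and leaving out 1 library each gave 0 to 1, the 1 being Pantr1 in deep-layer ExN without Het 4. The other POU genes and partners, run only with DESeq2, without the filter and with each library left out, had 0 calls with DESeq2 and 2 without the filter (Myt1l in astroglia and Sox11 in mural/fibroblast nuclei) and 0 with each library left out. Over all genes the 12 calls became 103 with DESeq2, 85 in males only, 1036 without the filter, 4 with the strict gate, 3 with all barcodes, and 2 to 468 with 1 library left out. The 468 came without Het 4, the only female Het library, so that sex then differed between the groups, and at most 16 came without any other. The cause of these shifts was not tested.

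With the replicate number as a block the 4 genes had 0 calls and all genes 49. The numbers are not taken as pairs, and 0 of 4 Het libraries correlated best with the WT library of its own number. For co-detection the block left 0 of 6 pairs past the threshold, where 4 pairs of libraries cannot give a p under 0.125, and 0 were past it under every other alternative and with each library left out (0 to 0).

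Small differences changed sign. For Pou3f3 in upper-layer ExN the log2 difference was 0.023 without the filter, 0.029 with a sex term, 0.076 in males only, 7.9e-05 with the strict gate and 0.0098 with all barcodes, and -0.085 to 0.077 leaving out 1 library. Pou3f3 in deep-layer ExN was 0.014 with all barcodes. Pantr1 in upper-layer ExN was 0.041 in males only and -0.10 to 0.074 leaving out 1 library. Pou3f1 ran from -0.019 to 0.25 in upper-layer and -0.023 to 0.73 in deep-layer ExN leaving out 1 library. In deep-layer ExN, Pou3f2 ran from 0.10 to 0.49 and Pou3f3 from -0.24 to -0.040, and the Gm28175 difference from 12.8 CPM, without Het 2, to 23.7. Levels in the highest class moved by less than 1 SD under every alternative, with leave-one-out means of 33.8 to 38.4 CPM for Pou3f1, 121 to 130 for Pou3f2, 193 to 202 for Pou3f3, 384 to 399 for Pantr1 and 413 to 430 for Gm28175. Sparse UMIs limit Pou3f1 outside upper-layer ExN.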
